A study of Rattus norvegicus with 18 samples.

Results

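The genes described here build the sarcomere, the contractile unit of striated muscle, and the machinery that couples electrical excitation to its contraction. They were followed in primary rat Schwann cells, the glia of peripheral nerve, at passage 3. The list holds 48 gene names and was drawn up with the RNA difference between vitamin C and control cultures already known, so its RNA values describe the list and test nothing. Names were matched through the gene symbols of the deposited peak list. That match found 38 of the 48 genes, and 253 of the 215951 peaks of 5-hydroxymethylcytosine (5hmC) were assigned to them. Actc1, Atp2a1, Chrng, Ckm, Mylpf, Tnnc1, Tnni2, Tnnt1, Tnnt3 and Ttn have no symbol there and were not found.

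Cells of the treated group received vitamin C (VitC) and cells of the other group were the control; dose and duration were not given in the sources used here. Each group has 3 RNA libraries depleted of ribosomal RNA, 3 hMeDIP libraries, in which DNA carrying 5hmC was immunoprecipitated, and 3 libraries of genomic input DNA. Whether libraries of 1 group stem from different cultures or animals is not stated, so the spread behind each p-value may be technical. Strain, age and sex of the rats and the purity of the cultures are likewise not given, and a primary Schwann cell culture can hold other cells of the nerve.

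In a muscle fibre, myosin heads of the thick filament pull on actin of the thin filament, and troponin with tropomyosin decides when they may bind. Z discs anchor the thin filaments and M bands the thick ones. An action potential running down a T tubule moves a voltage sensor, which opens the ryanodine receptor of the sarcoplasmic reticulum and lets calcium reach troponin, while the acetylcholine receptor at the nerve-muscle synapse starts the action potential. Most of these genes are textbook markers of striated muscle, some of it still developing, and they are not commonly used as Schwann cell markers.

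Between 23381814 and 33173282 reads per RNA library fell in genes. Among the controls, counts differed between libraries by 5.03 to 8.61 times sampling noise (chi-square per degree of freedom). VitC replicates 2 and 3 differed by 5.26 times, but replicate 1 differed from them by 27.4 and 38.3 times and stood apart. Of 12925 genes tested with edgeR's quasi-likelihood test at an adjusted p of 0.05, 2473 were higher and 2715 lower with VitC, together 40.1%. Scaling by all counted reads gave 1639 higher (12.7%) and 1115 lower (8.63%). Schwann cell markers were abundant in every library: the 10 listed genes summed to 11957 to 12755 CPM (read counts scaled to the library's reads in genes) in VitC and 12252 to 12527 CPM in control libraries. Of these 10 genes, 4 rose (Cdh19, Mbp, Pmp22 and Gas7, by 0.30 to 0.77 on the log2 scale), 2 fell (S100b and Erbb3) and 4 passed in neither direction. Gas7 lost its call when scaled by all counted reads. Erbb3, at -0.16 ± 0.05, lost its call in 8 of 12 alternative fits, among them DESeq2 and those with any control left out. Over the alternative fits 3 to 6 of the genes rose and 1 to 2 fell. S100b, a calcium-binding protein used as a glial marker, fell to 589 ± 36.4 CPM with VitC, against 1172 ± 42.4 CPM in control (SD, n = 3 each), and Sox10, the glial lineage factor, had 655 ± 26.2 and 602 ± 11.6 CPM.

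Sarcomere and excitation-contraction RNA was higher in every VitC library than in every control library for 35 of the 37 genes tested. Klhl40 was lower in every VitC library, and Xirp1 overlapped between the groups. The same 35 genes were called higher and the same 1 lower, where 19.1% of all genes tested were called higher and 21.0% lower. Every VitC library stood above every control library in 25.8% of all genes and below in 28.9%. The list was chosen on this contrast, so these counts are read no further. Summed over the 38 genes found, the level was 1381, 1206 and 1280 CPM in VitC replicates 1 to 3, against 346, 454 and 455 CPM in control replicates 1 to 3. The gene left over, Myh8, a perinatal myosin heavy chain, fell under the filter with 2, 3 and 3 reads in VitC and 4, 0 and 1 reads in control libraries.

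The sizes of the differences were alike across the list. The median log2 change was 1.72 with quartiles of 1.56 and 1.92, against a median of -0.01 and quartiles of -0.22 and 0.24 over all genes tested. A log2 change of 1 or more was found in 34 of the 37 genes, where 5.42% of all genes reached it, and 26 of them lay between 1 and 2. The extremes were few. Chrna1, the alpha subunit of the muscle acetylcholine receptor, had the largest change at 3.57 ± 0.24 (SE), followed by the kinase-domain protein Alpk3 at 2.87 ± 0.20 and the voltage sensor Cacna1s at 2.43 ± 0.13. The smallest were Sgca at 0.36 ± 0.08, Xirp1 at 0.19 ± 0.14 and Klhl40 at -0.82 ± 0.07.

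**Figure D1:**
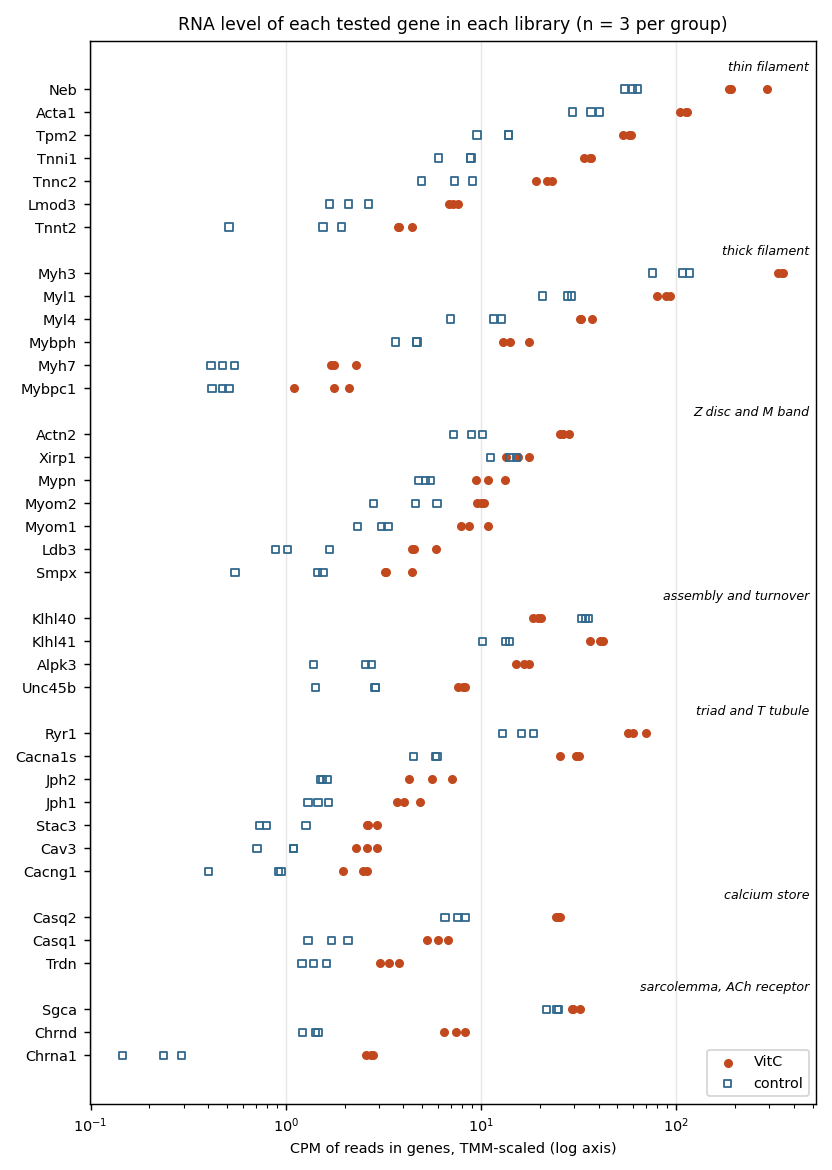
RNA level of the 37 tested genes, ordered by role and by mean level, in CPM of reads in genes on a log axis; each filled circle is a VitC library and each open square a control library. All circles lie to the right of all squares except for Klhl40, where they lie to the left, and Xirp1, where they mix.

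**Figure D2:**
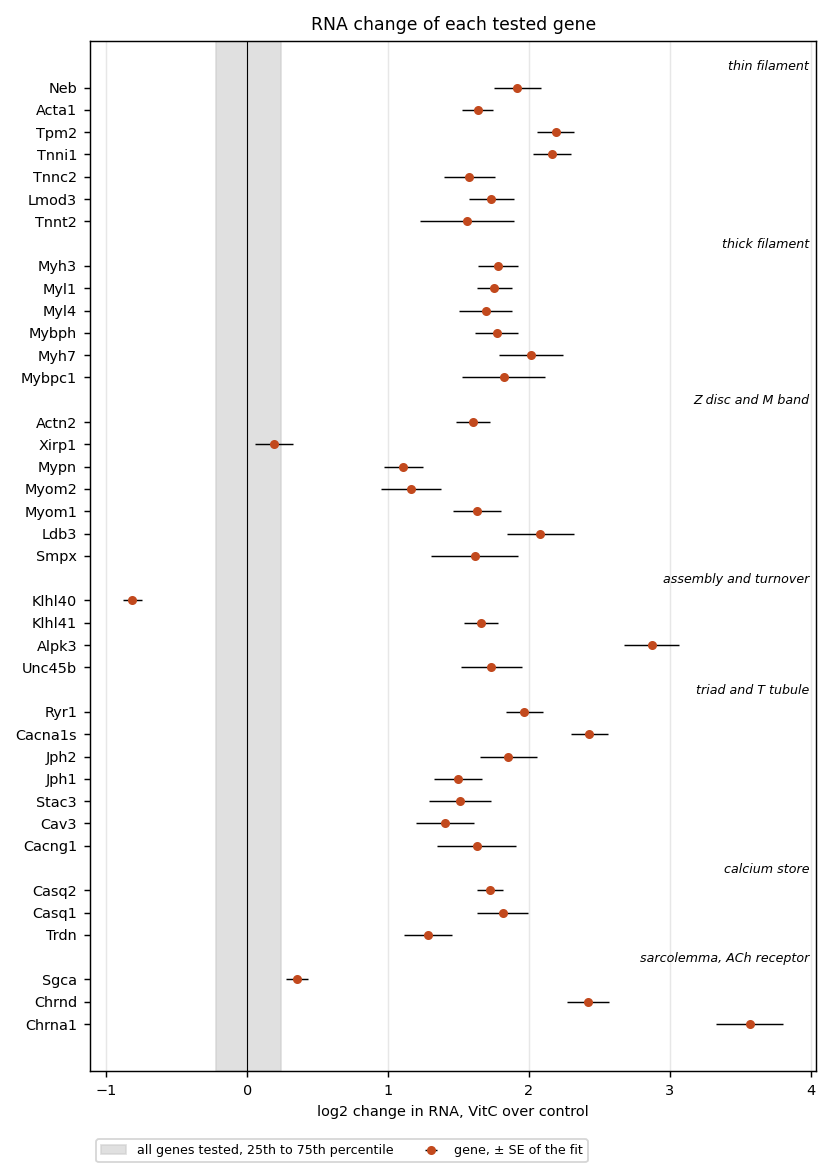
Log2 change in RNA, VitC over control, of the same genes with the standard error of the fit; the grey band is the interquartile range of all 12925 genes tested, from -0.22 to 0.24. Most genes lie between 1 and 2, with Chrna1 at 3.57 and Klhl40 at -0.82 as the ends.

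The promoters of these genes were examined because the genes differ together. RefSeq (assembly GRCr8) holds 39 promoters for 34 of the 38 genes. Motifs were searched on both strands in the 250 bases before each start. The E box CANNTG, to which myogenic factors of the MyoD family bind, was in 82.1% of the 39 promoters and in 65.5% of all 33469 promoters. Its form CAGCTG was in 38.5% and 12%, and every CAGCTG is also a CANNTG. The MEF2 motif was in 23.1% and 2.96%, and the CArG motif, to which serum response factor binds, in 5.13% and 1.5%. These are shares of letters in a window, with no test, and say nothing of binding in these cells. Windows of a gene can overlap: the same MEF2 site of Xirp1 was counted in each of its overlapping windows. The promoters below are a small choice, shown in the direction of transcription, with motif matches in capitals. Chrna1, Alpk3 and Cacna1s had the largest RNA changes, Klhl40 was the gene that was lower, Acta1 holds the CArG motif, and Tpm2 had a change of 2.19 with no match to any of the motifs.
Chrna1: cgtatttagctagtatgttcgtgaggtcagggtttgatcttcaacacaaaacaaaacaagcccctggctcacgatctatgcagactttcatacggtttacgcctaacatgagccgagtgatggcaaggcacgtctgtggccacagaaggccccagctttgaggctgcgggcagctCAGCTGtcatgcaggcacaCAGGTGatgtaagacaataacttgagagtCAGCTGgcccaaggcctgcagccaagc
Alpk3: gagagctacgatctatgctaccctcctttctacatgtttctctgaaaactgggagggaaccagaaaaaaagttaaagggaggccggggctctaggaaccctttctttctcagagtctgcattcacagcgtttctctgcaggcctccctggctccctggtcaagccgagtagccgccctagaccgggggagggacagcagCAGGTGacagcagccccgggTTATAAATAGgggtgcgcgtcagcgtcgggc
Cacna1s: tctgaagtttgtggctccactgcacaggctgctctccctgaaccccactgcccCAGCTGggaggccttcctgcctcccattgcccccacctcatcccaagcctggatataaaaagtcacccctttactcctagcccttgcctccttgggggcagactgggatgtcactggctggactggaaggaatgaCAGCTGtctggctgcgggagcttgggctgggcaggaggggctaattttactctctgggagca
Klhl40: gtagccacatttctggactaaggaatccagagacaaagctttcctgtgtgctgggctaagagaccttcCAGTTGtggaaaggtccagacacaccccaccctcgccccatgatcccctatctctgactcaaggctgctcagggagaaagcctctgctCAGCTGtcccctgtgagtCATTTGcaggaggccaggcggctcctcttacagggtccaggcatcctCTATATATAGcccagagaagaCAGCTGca
Acta1: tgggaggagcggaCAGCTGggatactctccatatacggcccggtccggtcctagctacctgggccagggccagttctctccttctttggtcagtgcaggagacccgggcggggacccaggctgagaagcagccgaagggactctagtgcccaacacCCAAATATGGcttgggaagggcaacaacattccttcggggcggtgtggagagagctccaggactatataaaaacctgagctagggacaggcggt
Tpm2: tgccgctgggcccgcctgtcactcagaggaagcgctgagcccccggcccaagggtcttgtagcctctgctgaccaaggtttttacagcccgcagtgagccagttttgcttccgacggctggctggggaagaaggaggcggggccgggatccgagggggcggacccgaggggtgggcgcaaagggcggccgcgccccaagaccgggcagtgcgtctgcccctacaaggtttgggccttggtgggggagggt
In GRCr8 they lie at chr3:78877354-78877603 (minus strand), chr1:144423496-144423745 (plus strand), chr13:50045418-50045667 (plus strand), chr8:130318543-130318792 (plus strand), chr19:68784195-68784444 (minus strand) and chr5:62575727-62575976 (minus strand). The Klhl40 window, from the gene that was lower, has 4 E boxes, 2 of them CAGCTG, and 1 MEF2 match. Chrna1 has 3 E boxes, 2 of them CAGCTG, and Cacna1s has 2, both CAGCTG. Alpk3 has 1 E box and 1 MEF2 match.

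All 7 thin filament genes were higher, by 1.56 to 2.19 on the log2 scale. Neb codes for nebulin, the giant protein that runs along the thin filament. It had 293, 187 and 191 CPM in VitC libraries, against 54.3, 59.9 and 63.3 CPM in control libraries, a log2 change of 1.92 ± 0.17. The library that stood apart, VitC replicate 1, held the highest Neb level, and the groups did not overlap with or without it. Skeletal alpha-actin, Acta1, had 113, 104 and 113 CPM in VitC and 29.3, 36.6 and 40.3 CPM in control libraries (1.64 ± 0.11). Tpm2, a tropomyosin, had 56.9, 53.6 and 58.8 CPM in VitC and 9.54, 13.8 and 13.8 CPM in control libraries (2.19 ± 0.13). In both, the VitC libraries were close together and control replicate 1 was the lowest of all 6 libraries. Tnni1, the slow skeletal inhibitory troponin, had 36.7, 33.5 and 36.3 CPM in VitC and 6.06, 8.89 and 8.79 CPM in control libraries (2.16 ± 0.13). Fast troponin C (Tnnc2), the actin-nucleating Lmod3 and cardiac troponin T (Tnnt2) changed by 1.58 ± 0.18, 1.73 ± 0.16 and 1.56 ± 0.34. Tnnt2 had 4.41, 3.75 and 3.80 CPM in VitC and 0.51, 1.92 and 1.55 CPM in control libraries, the least even controls of the 7 genes.

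All 6 tested thick filament genes were higher, by 1.69 to 2.02. Embryonic myosin heavy chain, Myh3, had 331, 346 and 354 CPM in VitC libraries, against 75.7, 117 and 108 CPM in control libraries, a log2 change of 1.78 ± 0.14. The light chain Myl1 had 93.2, 79.4 and 88.4 CPM in VitC and 20.7, 27.6 and 29.0 CPM in control libraries (1.76 ± 0.12). The embryonic and atrial light chain Myl4 had 32.4, 32.1 and 36.8 CPM in VitC and 6.98, 12.7 and 11.6 CPM in control libraries (1.69 ± 0.19). Each time control replicate 1 was lowest and no VitC library came near the controls. Mybph, a myosin-binding protein, had 17.6, 12.96 and 13.99 CPM in VitC and 3.65, 4.69 and 4.69 CPM in control libraries (1.77 ± 0.15). Slow or beta-cardiac myosin (Myh7) and slow myosin-binding protein C (Mybpc1) were close to the filter, with 28 to 65 reads in a VitC library and 10 to 16 reads in a control library, and changed by 2.02 ± 0.23 and 1.82 ± 0.30. Myosin heavy chain genes are near-identical in long stretches, and how reads shared between copies were counted is not given, so levels of single myosins are uncertain.

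Of the 7 Z disc and M band genes, 6 were higher, by 1.11 to 2.08. Actn2, the alpha-actinin that crosslinks thin filaments at the Z disc, had 28.3, 26.2 and 25.4 CPM in VitC and 7.20, 8.95 and 10.2 CPM in control libraries (1.60 ± 0.12). Mypn, which binds nebulin and alpha-actinin, had 13.2, 9.42 and 10.8 CPM in VitC and 4.79, 5.20 and 5.52 CPM in control libraries (1.11 ± 0.14). Myom2, an M band myomesin, had 10.3, 9.999 and 9.56 CPM in VitC and 2.81, 4.64 and 5.94 CPM in control libraries (1.16 ± 0.21). Mypn and Myom2 had the smallest changes of the 6. Its relative Myom1 changed by 1.63 ± 0.17, the Z disc protein Ldb3 by 2.08 ± 0.23 and the small muscle protein Smpx by 1.62 ± 0.31. Xirp1, an actin-binding protein of intercalated discs and muscle attachments, had 17.5, 13.4 and 15.4 CPM in VitC and 11.2, 14.1 and 15.2 CPM in control libraries. Its groups overlapped, and the change of 0.19 ± 0.14 was the nearest to 0 in the list.

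The assembly and turnover genes held the gene that was lower. Klhl40, which in mice stabilises the thin filament proteins nebulin and Lmod3, had 19.6, 18.4 and 20.3 CPM in VitC libraries, against 32.9, 34.3 and 35.4 CPM in control libraries, a log2 change of -0.82 ± 0.07. The groups lay well apart and both were tight, with a mean of 19.4 ± 0.97 CPM in VitC and 34.2 ± 1.27 CPM in control (SD, n = 3 each). Its close relative Klhl41 went the other way, with 42.0, 36.0 and 40.6 CPM in VitC and 10.2, 13.96 and 13.4 CPM in control libraries (1.66 ± 0.12). Alpk3, needed in mice for orderly heart muscle, had 16.5, 15.2 and 17.6 CPM in VitC and 1.39, 2.75 and 2.55 CPM in control libraries. The myosin chaperone Unc45b had 7.64, 8.23 and 8.05 CPM in VitC and 1.42, 2.86 and 2.89 CPM in control libraries (1.73 ± 0.22). Control replicate 1 was again the lowest library for Klhl41, Alpk3 and Unc45b. Klhl40 was also lowest there among the controls, but above all VitC libraries.

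All 7 triad and T tubule genes were higher, by 1.41 to 2.43. Ryr1, the calcium release channel, had 69.7, 56.3 and 59.8 CPM in VitC and 12.9, 16.1 and 18.5 CPM in control libraries (1.97 ± 0.13). Cacna1s, the pore-forming subunit of the L-type channel that senses voltage for Ryr1, had 30.7, 25.2 and 31.9 CPM in VitC and 4.49, 5.85 and 5.94 CPM in control libraries. The channel that senses and the channel that releases were thus both higher in every VitC library. Jph2, a junctophilin that holds T tubule and reticulum together, had 7.09, 4.30 and 5.59 CPM in VitC and 1.53, 1.62 and 1.51 CPM in control libraries (1.85 ± 0.20). Jph1 had 4.88, 3.72 and 4.01 CPM in VitC and 1.46, 1.65 and 1.30 CPM in control libraries (1.5 ± 0.17). In both junctophilins VitC replicate 2 was the lowest of its group. The adaptor Stac3, caveolin 3 (Cav3) and the channel's gamma subunit (Cacng1) changed by 1.51 ± 0.22, 1.41 ± 0.21 and 1.63 ± 0.28, on 50 to 83 reads per VitC library and 11 to 43 reads per control library.

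The 3 calcium store genes found were higher too. Casq2, the cardiac and slow-fibre calsequestrin that buffers stored calcium, had 24.9, 24.1 and 25.3 CPM in VitC and 6.54, 8.27 and 7.62 CPM in control libraries (1.72 ± 0.10). Casq1, the fast-fibre form, had 6.73, 6.03 and 5.31 CPM in VitC and 2.08, 1.71 and 1.30 CPM in control libraries (1.81 ± 0.18). Trdn, triadin, which ties calsequestrin to the release channel, had 3.82, 3.36 and 3.02 CPM in VitC and 1.61, 1.21 and 1.38 CPM in control libraries (1.28 ± 0.17). For Casq1 and Trdn control replicate 1 was the highest control, unlike most of the list, and VitC replicate 1 was the highest of its group.

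At the sarcolemma the 2 acetylcholine receptor subunits found had large changes and Sgca a small one. Chrna1 had 71, 71 and 78 reads in VitC libraries, against 4, 8 and 7 reads in control libraries, or 2.80, 2.56 and 2.74 CPM against 0.15, 0.24 and 0.29 CPM. It was nearly undetected without VitC, so its fold rests on very few control reads. The delta subunit Chrnd had 8.23, 6.46 and 7.42 CPM in VitC and 1.46, 1.42 and 1.21 CPM in control libraries (2.42 ± 0.15). Sgca, alpha-sarcoglycan of the dystrophin complex, had 29.2, 29.4 and 32.2 CPM in VitC and 21.6, 24.5 and 24.98 CPM in control libraries. Its groups did not overlap, yet it lost its call when libraries were scaled by all counted reads.

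The genes did not vary independently within a group. Among the controls, replicate 1 was the lowest library in 28 of the 37 genes (75.7%), against 35.7% of all genes tested. Among the VitC libraries, replicate 2 was the lowest in 25 of 37 (67.6%), against 22.2% of all genes, and replicate 1 the highest in 20 (54.1%), against 39.3%. Relative to the mean of the controls, the median gene stood at 1.73, 1.62 and 1.70 on the log2 scale in VitC replicates 1 to 3, and at -0.29, 0.11 and 0.11 in control replicates 1 to 3. The median ratio of the highest to the lowest library was 1.21 in VitC and 1.43 in control, against 1.17 and 1.12 over all genes. The list was thus less even than other genes among the controls, with 1 library low. Without control replicate 1 the median change was 1.53, and over all libraries left out in turn it lay between 1.53 and 1.83.

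**Figure D3:**
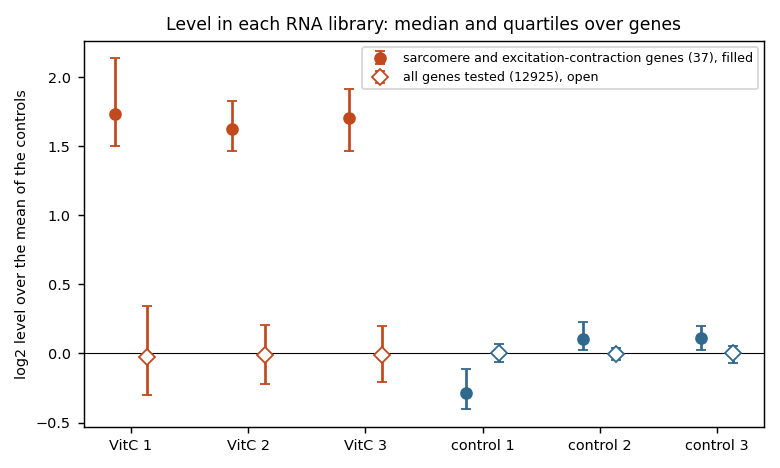
Median (point) and quartiles (bars) over genes of the log2 level relative to the mean of the 3 controls, in each RNA library; filled circles are the 37 sarcomere and excitation-contraction genes and open diamonds all genes tested. The listed genes stand at 1.62 to 1.73 in VitC libraries, and at -0.29 in control replicate 1 against 0.11 in the other controls.

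Other genes of the same structures were listed from textbook knowledge, with earlier results of these data known. Beside the counts that follow, 19.1% of all genes tested were higher and 21.0% lower. Of 41 tested genes in the list of other sarcomere genes, 24 rose, 4 fell and 13 passed in neither direction, with a median log2 change of 0.57. Synpo2, a Z disc partner of filamin, rose to 3.30 ± 0.46 CPM with VitC, against 0.65 ± 0.05 CPM in control. The third myomesin, Myom3, rose to 9.01 ± 1.08 CPM, against 2.08 ± 0.12 CPM in control, and Fhl1, a LIM-domain protein, to 11.8 ± 1.13 CPM, against 2.91 ± 0.38 CPM (SD, n = 3 each throughout). Smaller changes were found on both sides. The tropomyosin Tpm4 rose to 743 ± 39.1 CPM with VitC, against 504 ± 23.8 CPM in control, and Pdlim7, Mylk and Flnc rose by 0.42 ± 0.06, 0.43 ± 0.15 and 0.26 ± 0.06. Cryab, a small heat shock protein, fell by 0.81 ± 0.10, the tropomyosin Tpm3 by 0.51 ± 0.05, nonmuscle myosin Myh10 by 0.23 ± 0.06 and nonmuscle actinin Actn4 by 0.19 ± 0.05 on the log2 scale. Mylk lost its call with DESeq2, when scaled by all counted reads, and with any library left out. Flnc lost its call when scaled by all counted reads or without control replicate 1 or control replicate 2. Myh10 and Actn4 were not called when scaled by all counted reads, nor without VitC replicate 2, control replicate 2 or control replicate 3. Under the alternatives (DESeq2, other scaling and filters, a replicate block, 1 library left out), 21 to 25 of the list rose and 2 to 6 fell.

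Of 27 tested genes in the list of other excitation-contraction genes, 12 rose, 5 fell and 10 passed in neither direction, with a median of 0.12. Srl, sarcalumenin of the sarcoplasmic reticulum, rose to 37.5 ± 2.50 CPM with VitC, against 7.70 ± 1.99 CPM in control. The membrane repair protein Trim72 rose by 2.03 ± 0.21 and the muscle sodium channel Scn4a by 1.97 ± 0.22. Cacnb2, a calcium channel beta subunit, had 60.2, 25.4 and 30.3 CPM in VitC and 81.4, 61.3 and 66.7 CPM in control libraries (-0.86 ± 0.28). Without VitC replicate 1 its change was -1.32, and its call was lost with DESeq2 and with any of the other 5 libraries left out. Its relative Cacnb3 fell by 0.38 ± 0.06 and Fkbp1a, a binding protein of release channels found in most cells, by 0.36 ± 0.05, and neither was called when scaled by all counted reads. Over the alternatives 11 to 13 rose and 1 to 5 fell. Of 18 tested sarcolemma and synapse genes, 13 rose, 0 fell and 5 passed in neither direction. Dok7, which activates the synapse-building kinase Musk, rose to 9.04 ± 1.51 CPM with VitC, against 1.59 ± 0.49 CPM in control. Sgcd, delta-sarcoglycan, had 78.9, 33.1 and 32.2 CPM in VitC and 17.7, 16.6 and 17.5 CPM in control libraries, and the 78.9 CPM was in VitC replicate 1, without which its change was 0.92 in place of 1.47. Of 7 tested genes of muscle energy supply, 4 rose and 2 fell. The phosphoglycerate mutase Pgam2 rose by 2.31 ± 0.23, myoglobin (Mb) by 1.39 ± 0.17 and Cox8b, a muscle subunit of cytochrome oxidase, by 1.37 ± 0.35, while the fatty acid binding protein Fabp3 fell by 0.51 ± 0.13 and phosphofructokinase Pfkm by 0.27 ± 0.08. Cox8b lost its call without control replicate 2, and Pfkm when scaled by all counted reads or without VitC replicate 2, control replicate 2 or control replicate 3.

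Among markers of other cell types a nerve culture could hold, some rose with VitC and others had too few reads to be tested. The skeletal muscle lineage list, which shares Dok7 and Musk with the sarcolemma list, holds 15 genes, of which 6 were tested; these 6 rose, with a median of 1.53. Myod1, the master factor of muscle fate, rose to 4.64 ± 0.13 CPM with VitC, against 2.24 ± 0.37 CPM in control. Cdh15, M-cadherin of muscle precursors, rose to 7.59 ± 1.1 CPM, against 2.48 ± 0.58 CPM, and Six4 rose by 2.09 ± 0.25. Mef2c, which is also made outside muscle, rose by 0.30 ± 0.10 (0.19 without VitC replicate 1), lost its call when scaled by all counted reads or with VitC replicate 2 or any control left out, and held most of the list's summed level of 323 to 406 CPM in VitC and 255 to 289 CPM in control libraries. Pax7, Pax3 and Vgll2 never exceeded 6 reads in a library, and Myf5, Myog, Myf6, Mymk and Mymx were not found by symbol. In the smooth muscle and pericyte list of 10 genes, which shares Acta2, Des and Myh11 with the sarcomere list, 4 of 5 tested genes rose, 0 fell and 1 passed in neither direction, with sums of 1107 to 1300 CPM in VitC and 820 to 844 CPM in control libraries. Mcam held most of these sums, with 913 to 1089 CPM in VitC and 742 to 763 CPM in control libraries, and rose by 0.44 ± 0.07. Tagln, an actin-binding protein, rose by 2.27 ± 0.09, the intermediate filament Des by 1.54 ± 0.09 and Pdgfrb by 1.11 ± 0.06, whereas Acta2, Cnn1, Rgs5, Notch3 and Cspg4 never exceeded 10 reads in a library. Of 4 tested fibroblast markers, 1 rose (Col1a1, by 1.16 ± 0.07) and 3 fell, and Dcn and Dpt had 0 reads; the sums, set by Col1a1, were 9271 to 10782 CPM in VitC and 4513 to 4707 CPM in control libraries. The 7 cardiac markers found never exceeded 6 reads in a library. In bulk RNA, more cells of a type and more RNA per cell cannot be told apart. The part of other cell types in the differences above was not tested.

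5hmC is made when TET enzymes oxidise methylated cytosine, and vitamin C is known to support these enzymes. The 253 peaks of the listed genes were spread unevenly, from 1 to 39 per gene with a median of 4. In each group the peak counts of hMeDIP replicates 1 and 3 differed by less than sampling noise, at 0.896 (VitC) and 0.963 (control) times, and the pair was summed and counted as 1 library, which leaves 2 against 2. Of the 253 peaks, 91 were higher and 100 lower with VitC by edgeR's quasi-likelihood test at an adjusted p of 0.05, where 36.9% of all peaks were higher and 36.3% lower. The median log2 change was 0.04 over these peaks and 0.05 over all peaks. Both the shares and the median were near those of all peaks. Of the peaks assigned to any gene, as all of these are, 44.2% were higher and 28.7% lower, with a median of 0.17. Beside those, the listed genes' peaks leaned lower, with 36.0% higher and 39.5% lower, and this difference was not tested. Scaling by all counted reads gave 150 higher and 67 lower (60.1% and 23.6% of all peaks), and moved the median of all peaks to 0.49. Reads in peaks were 40.8% to 43.9% of all counted reads in VitC and 30.8% to 35.7% in control hMeDIP libraries. DESeq2 gave 49 higher and 92 lower (20.2% and 31.8% of all peaks). Directions of single peaks below are therefore relative to the bulk of peaks.

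The deposited peak list runs through the chromosomes 2 times, and the direction of change goes with the pass. In the first pass of 68432 peaks, 87.1% were lower with VitC and 2.89% higher. In the second pass of 147519 peaks, 12.8% were lower and 52.6% higher. How the passes were made is not given, nor whether the peaks were called on these same hMeDIP libraries. If they were, a peak's direction and p-value may partly follow from how it entered the list, which was not tested. Of the listed genes' peaks, 85 (33.6%) are in the first pass, against 24.4% of all peaks assigned to a gene. There 74 were lower and 5 higher with VitC, with a median log2 change of -1.0 that compares with -0.99 over all peaks of the pass. Of the 168 in the second pass, 86 were higher and 26 lower, with a median of 0.29 and 0.30 over all peaks of the pass. Within each pass the peaks of sarcomere and excitation-contraction genes thus changed about as all peaks did.

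**Figure D4:**
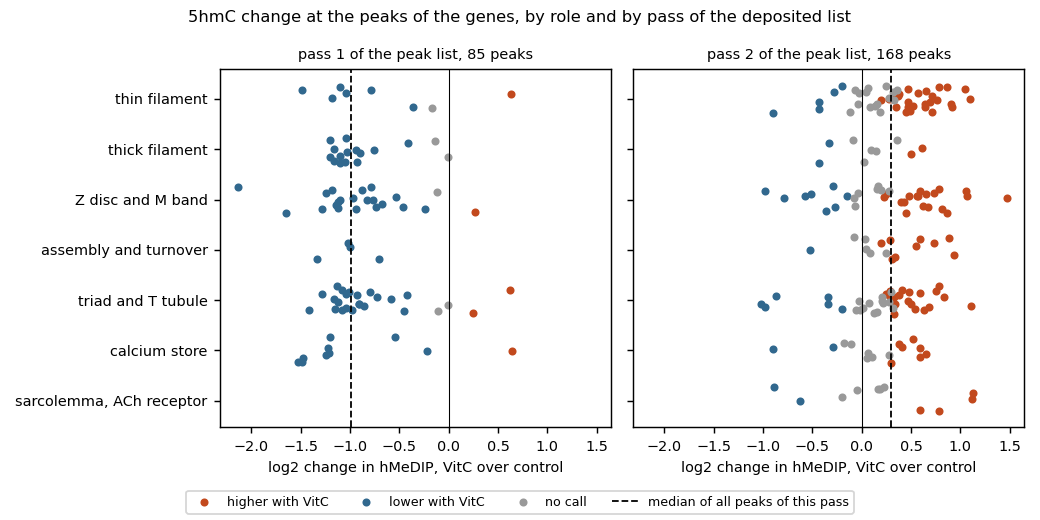
Log2 change in hMeDIP, VitC over control, of each of the 253 peaks by role of its gene, in the first pass (left, 85 peaks) and second pass (right, 168 peaks) of the deposited list; colours give the call at an adjusted p of 0.05 and the dashed line is the median of all peaks of that pass, -0.99 and 0.30. The points scatter around that line in each role that has peaks in the pass; sarcolemma genes have 0 in the first.

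Input DNA gave 0 called peaks among 252 tested with edgeR, and 14 had an unadjusted p under 0.05, 8 of them higher and 6 lower. DESeq2 also called 0, with 1 peak at an unadjusted p under 0.05. No peak of any gene was called in input (0.0% of 215759). Tested as the difference between hMeDIP and input changes, 63 of the 253 peaks were higher and 69 lower with VitC, where 26.8% and 25.4% of all peaks were. Of the 109330 peaks assigned to any gene, 35954 were higher and 20249 lower by this fit, so gene peaks leaned higher and those of the list did not. Depth was modest for single peaks: the median peak had 3.21 hMeDIP CPM in VitC and 3.57 in control, and its share of hMeDIP reads was 4.37 times that of input in VitC and 3.61 times in control.

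By role, thin filament peaks were 27 higher and 11 lower of 54, and thick filament peaks 2 higher and 16 lower of 25. Of the thick filament peaks, however, 16 of 25 lie in the first pass of the list, against 8 of 54 for the thin filament. Z disc and M band peaks were 20 higher and 28 lower of 56, triad and T tubule peaks 21 and 27 of 63, calcium store peaks 8 and 11 of 25, assembly genes 9 and 5 of 19, and sarcolemma genes 4 and 2 of 11. Over all peaks 36.9% were higher and 36.3% lower, and over those assigned to a gene 44.2% and 28.7%. No role was tested against another. Of the 38 genes, 36 held a called peak. Peaks went both ways in 21 genes, were called higher alone in 7 and lower alone in 8, and Myl1 and Stac3, each with 1 peak, had none called. The same counts were not made over all genes with a peak, so these are no trait of the list.

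Neb had the most peaks, 39, of which 21 were higher, 8 lower and 10 neither. Ryr1 had 25, of which 6 were higher and 17 lower, and 13 of them lie in the first pass. Summed over its peaks, Ryr1 held 106 and 102 hMeDIP CPM in VitC (replicates 1 and 3 summed, then replicate 2), against 148 and 159 CPM in control, so its summed 5hmC was lower relative to the bulk of peaks while its RNA was higher. Neb held 186 and 183 CPM in VitC and 169 and 162 CPM in control. Myh7 had the lowest ratio, with 6.21 and 5.46 CPM in VitC and 10.8 and 13.9 CPM in control, and its 2 peaks are both in the first pass. Acta1 had the highest, with 1.49 and 1.34 CPM in VitC and 0.88 and 0.72 CPM in control on its single peak. Klhl40, whose RNA was lower, held 19.7 and 19.2 CPM in VitC and 17.9 and 17.5 CPM in control over 4 peaks, of which 3 were higher and 1 lower.

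Summed 5hmC over a gene's peaks was higher with VitC in 19 of the 38 genes, against 49.3% of all 16140 genes with a peak, with median log2 ratios of 0.01 and -0.01. Across the 37 genes with RNA tested, the change in RNA and the change in summed 5hmC had a Pearson correlation of -0.03 and a Spearman correlation of -0.02. These are descriptions across genes that share the same libraries, and carry no p. The list was chosen on its RNA change, which leaves little range in RNA, and a ratio of summed peaks follows how many of them are in each pass, so values near 0 say nothing of a link between 5hmC and RNA. The summed 5hmC ratio was -0.77 for Smpx and 0.65 for Tnnc2.

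**Figure D5:**
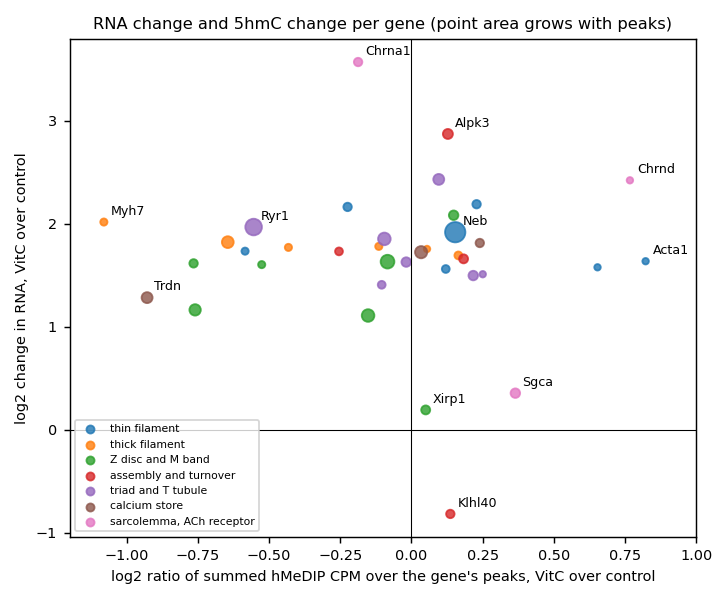
Log2 change in RNA of 37 genes against the log2 ratio of their hMeDIP CPM summed over peaks, VitC over control; colour is the role and point area grows with the number of peaks. Summed 5hmC ratios run from -1.08 (Myh7, both peaks in the first pass) to 0.82 (Acta1, its peak in the second pass); the narrow range of RNA changes comes from how the list was chosen.

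The 12 peaks with the smallest hMeDIP p were 11 lower and 1 higher with VitC. Of the 12, 11 are in gene bodies and 9 in the first pass, where 87.1% of all peaks were lower. Their p-values therefore describe them and are no independent support for a change. Positions are given as in the deposited list, whose genome build and base convention were not given in the sources used here. The strongest lies in Myom1, at chr9:119359647-119360525, 6246 bases from the start. It had 1.69 and 1.88 CPM in VitC and 8.15 and 6.97 CPM in control, a log2 change of -2.14 ± 0.12 (edgeR, adjusted p = 2.31e-19). A peak in Smpx, chrX:40034871-40035601, followed with 2.61 and 2.60 CPM in VitC and 7.95 and 8.72 CPM in control (-1.65 ± 0.11, edgeR, adjusted p = 1.75e-17). The higher one was in Sgca, chr10:82770857-82772391, with 10.2 and 10.5 CPM in VitC and 4.89 and 4.42 CPM in control (1.13 ± 0.09, edgeR, adjusted p = 7.11e-15). In input these peaks changed by -0.15, -0.06 and 0.34 on the log2 scale, none of them called.

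Ryr1 supplied 5 of the 12, all lower, by 0.98 to 1.15 on the log2 scale. Among them, chr1:88068118-88068868, is labelled as promoter and lies 2392 bases upstream of the start, with 4.61 and 3.77 CPM in VitC and 9.07 and 10.5 CPM in control (-1.15 ± 0.10, edgeR, adjusted p = 5.48e-14). The other 4 lie in the gene body. Jph2 supplied a pair of neighbouring peaks, chr3:159753119-159753930 (-1.08 ± 0.09) and chr3:159750918-159751735 (-1.17 ± 0.10). The last are Neb chr3:37794263-37794881 (-1.49 ± 0.14) and Myom2 chr16:79628334-79629079 (-0.98 ± 0.09). All 12 were also called in the same direction when the hMeDIP change was set against the input change.

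Promoter labels were given to 51 of the 253 peaks, in 29 genes: 8 proximal, 11 within the label of 1 kb and 32 within that of 3 kb. Of the 51, 19 were higher, 15 lower and 17 neither; 12 lie in the first pass and 10 of those were lower. Over all peaks with these labels, 47.1% of the proximal ones were higher and 23.1% lower, 42.5% and 31.9% of those with the 1 kb label, and 42.3% and 30.3% of those with the 3 kb label. Of the 8 proximal peaks, Cav3 rose to 4.84 and 4.81 CPM with VitC, against 3.59 and 3.06 CPM in control (0.50 ± 0.12, edgeR, adjusted p = 0.000180), and Klhl41 to 5.49 and 5.23 CPM, against 4.25 and 4.30 CPM (0.34 ± 0.11, edgeR, adjusted p = 0.00382). Neb fell by 0.36 ± 0.08 at 135 bases upstream and Xirp1 by 0.14 ± 0.06 at 22 bases upstream (edgeR, adjusted p = 0.000198 and 0.0180), but scaled by all counted reads the changes were 0.09 and 0.32. Casq2, Ldb3, Lmod3 and Tnni1 changed by 0.07 ± 0.11, 0.28 ± 0.14, -0.03 ± 0.16 and 0.32 ± 0.17 and did not pass.

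Peaks with the 1 kb label were higher for Alpk3 (0.31 ± 0.06), Casq1 (0.38 ± 0.14), Jph2 upstream of the start (0.59 ± 0.09) and Klhl40 (0.88 ± 0.12). They were lower for Jph2 downstream of the start (-0.80 ± 0.17), Mybpc1 upstream of the start (-1.05 ± 0.17) and Neb (-0.44 ± 0.09), and 4 passed in neither direction. In Jph2 the 2 peaks on either side of the start thus went opposite ways, 1 in each pass of the list. Klhl40 had 5.39 and 5.65 CPM in VitC and 3.11 and 2.68 CPM in control at 780 bases from the start (edgeR, adjusted p = 6.44e-09), 2 weaker ones higher at 1467 bases upstream (0.20 ± 0.08) and 2449 bases downstream (0.73 ± 0.17), and 1 lower at 2908 bases upstream (-1.02 ± 0.12). Of the peaks with the 3 kb label, those of Acta1 (0.79 ± 0.21), Cacng1 (0.78 ± 0.10), Tnnc2 (0.69 ± 0.12), Tnnt2 (0.64 ± 0.15), Casq1 at 2847 bases (0.64 ± 0.09), Tpm2 at 1514 bases upstream (0.37 ± 0.11), Trdn at 1655 bases upstream (0.30 ± 0.14) and Ldb3 (0.22 ± 0.08) were higher, as were 3 of Neb, at 1.05 ± 0.15, 0.72 ± 0.12 and 0.31 ± 0.06. Those of Ryr1, Actn2 (-0.53 ± 0.12), Klhl41 (-0.52 ± 0.09), Mybpc1 (-1.21 ± 0.16), Mybph at 2323 bases (-0.76 ± 0.15), Myh3 (-0.44 ± 0.07), Myom2 (-0.46 ± 0.09), Tnni1 (-1.19 ± 0.17) and Neb at 1249 bases (-0.43 ± 0.09) were lower. The peaks of Chrna1, Stac3, Myl1 and Myl4 in this class did not pass, with changes of 0.18 ± 0.14, 0.21 ± 0.14, 0.03 ± 0.17 and -0.09 ± 0.10. Set against the input change, 11 of the 51 promoter peaks were higher and 6 lower. The 6 were those of Actn2, Klhl41 and Klhl40 upstream, Myom2, Ryr1 and Tnni1, all with the 3 kb label. Over all 1312 proximal peaks, 458 were higher and 174 lower by this fit to hMeDIP and input. Over all 4583 peaks with the 1 kb label 1441 and 1025 were, and over all 11549 with the 3 kb label 3679 and 2295. Of the 19 proximal and 1 kb peaks 0 were called lower by that fit in edgeR, so the lower calls there of Jph2, Mybpc1, Neb and Xirp1 were not made over input.

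Several of these promoter calls depended on the method or on 1 library. DESeq2 did not call Acta1, Casq1 at 328 bases upstream, Klhl40 at 1467 bases upstream, the proximal peaks of Klhl41 and Xirp1, Ldb3, Tpm2 and Trdn. Scaled by all counted reads, the peaks lower in Actn2, Klhl41, Myh3 and Myom2 and the 3 lower in Neb were not called, with changes of -0.10 to 0.09. With 1 hMeDIP library left out, Trdn lost its call whichever library it was, Klhl40 at 1467 bases upstream without VitC replicate 1 or control replicate 2, and Casq1 at 328 bases upstream and Tpm2 without VitC replicate 2. Ldb3 lost its call without VitC replicate 2 or control replicate 1 or 2, and Xirp1 without control replicate 3. With the replicate number as a block, Trdn and Xirp1 were not called either. The peaks in gene bodies described above, with the smallest p-values, were called under all of these settings.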

How the data were processed

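For RNA per gene, and for hMeDIP and input DNA per peak, the authors deposited whole-number read counts, with a list of peaks giving positions, gene symbols and features. The submitters' processing notes name HTSeq, STAR, BWA, Trim Galore and CASAVA 1.4 without their roles. Genome build, peak caller, strand setting and the handling of reads shared between gene copies were not given in the sources used here, so overlapping, antisense and near-identical genes cannot be told apart. Of all counted reads, 46.1% to 57.7% in RNA, 30.8% to 43.9% in hMeDIP and 8.43% to 8.65% in input libraries fell in genes or peaks; the rest, in entries that name no gene or peak, entered neither library sizes nor tests. Reads may repeat a molecule, since the labels mention no molecular identifiers.

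Tests on counts used edgeR 4.0.16 (R 4.3.3; quasi-likelihood F test, TMM, default expression filter, Benjamini-Hochberg over all genes or peaks, threshold 0.05), treatment being the only term. Each assay had its own fit, and hMeDIP and input together a fit with a treatment by assay interaction. Levels are TMM-scaled CPM with SD over 3 libraries, and changes are log2 VitC over control with the SE of the fit. In simulated RNA counts with 12927 genes in the fit, 100% of genes changed 2-fold upward and 92% of those changed 1.5-fold upward were recovered. For 2-fold and 1.5-fold downward changes 100% and 96% were. In simulated hMeDIP counts with 215951 peaks, 100% and 72% were recovered upward and 98% and 56% downward. False calls were 11 of 205 in RNA and 6 of 169 in hMeDIP. Only genes and peaks with many reads were changed, at a fixed dispersion per assay and with no library standing apart. The rates therefore do not cover genes or peaks with few reads, nor the spread of the real libraries.

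The members and all gene lists were chosen with earlier results of these data known. Of the listed genes the text names, per role, up to 4 with the highest mean level, the 3 largest and 3 smallest changes, the 12 peaks of smallest p, promoter peaks, and up to 3 genes per direction of each further list; other genes were added after their values were seen. Symbols with more than 1 identifier (87) were left out of the further lists. Libraries 1 and 3 of hMeDIP were summed in both groups because other pairs of the same group differed more (1.08 to 1.47 times sampling noise). The limit of 1.1 written for this choice, read literally, would sum the controls only, which is given as an alternative. Input pairs all lay at 0.978 to 0.988 and were kept as deposited. Replicate numbers are not said to pair samples. Promoter sequences are from RefSeq, assembly GRCr8. Alternatives were other scaling, DESeq2 1.42.0, other filters, a replicate block, libraries as deposited and each library left out. Counts by pass of the peak list were added after the data were seen. Other software was matplotlib 3.10.9, pandas 2.3.3, numpy 2.4.6 and Python 3.11.15.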

Additional observations from a re-analysis of the deposited data

How the results depend on the processing

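In RNA, 35 of the 37 genes were called higher and 1 lower under every alternative but scaling by all counted reads, where 34 and 1 were and Sgca lost its call. Leaving out 1 library at a time gave 35 and 1 each time. The number of all genes called, 5188, fell to 2754 when scaled by all counted reads and was 3494 to 5634 with 1 library left out. The replicate number as a block gave 35 and 1 of the list, and changed no RNA call of a listed gene. Same-numbered RNA libraries correlated at 0.25, 0.14 and 0.03 in their deviations from group means. VitC replicates 1 and 2 correlated best with the control of their own number, and VitC replicate 3 with control replicate 2 (0.22). With 3 libraries per group these values cannot tell whether the numbers pair samples.

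In hMeDIP, member peaks called higher were 91; scaling by all counted reads gave 150 and DESeq2 49. In the first pass of the list the 5 called higher became 9 and 3, in the second pass the 86 called higher became 141 and 46, and the 26 called lower there became 8 by all counted reads. With 1 library left out, 78 to 92 peaks were higher and 95 to 101 lower. The replicate block gave 86 and 96, all libraries as deposited 94 and 102, and summing the controls alone 90 and 102. Over input, 47 were higher and 80 lower with a term per sample as a replicate block. Without hMeDIP replicate 2 a group holds 1 summed library, which is assumed to vary like the other group. For input, libraries as deposited were already the ones tested.

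Signs of weak promoter peaks turned. Scaled by all counted reads, changes were 0.38 for Lmod3, 0.29 for Mybph at 1060 bases, 0.014 for Myh3, 0.36 for Myl4, 0.095 and 0.00027 for Neb at 135 bases upstream and 1249 bases, and 0.32 for Xirp1. DESeq2's size factors in edgeR gave -0.0083 for Myl1. With 1 library left out, the range was -0.0016 to 0.10 for Casq2, -0.16 to 0.050 for Lmod3 and -0.062 to 0.18 for Myl1. The cause was not tested. Few reads limit Chrna1, Myh7, Mybpc1 and single peaks, and 2 hMeDIP libraries per group limit every 5hmC call.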
